A study of Mus musculus with 45 samples.

Results

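The proteasome subunit genes examined here are the 37 genes of the deposited mouse liver count tables whose symbols start with Psma, Psmb, Psmc or Psmd and a digit, with the immunoproteasome subunits Psmb8, Psmb9 and Psmb10 left out. The rule uses the symbol and no measured value, and it was applied to 23227 genes in all. Of the 37, 31 encode constitutive subunits of the 26S proteasome, 14 of the 20S core and 17 of the 19S cap. The other members are the cap's assembly chaperones Psmd5, Psmd9 and Psmd10, the tissue-restricted subunits Psma8 and Psmb11, and Psmc3ip, which shares the name but encodes a meiotic recombination factor.

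The 26S proteasome degrades proteins that carry ubiquitin chains. Its core is a barrel of alpha and beta rings in which Psmb5, Psmb6 and Psmb7 hold the active sites, and its cap binds the ubiquitin chain, removes it and unfolds the substrate. Cells raise nearly all subunit genes together through Nfe2l1, a transcription factor held in the endoplasmic reticulum and released when the proteasome cannot keep up. Inflammatory signals exchange the active subunits for Psmb8, Psmb9 and Psmb10 to give the immunoproteasome.

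The libraries are polyA RNA-seq of whole liver from wild type C57BL/6J mice killed at 24 weeks of age after a night without food. The diet was chow throughout, or a switch to high-fat food (HFD) at 18 weeks of age for 6 weeks or at 8 weeks of age for 16 weeks, so that diet duration and the age at its start changed together. Groups on chow and on 16-week HFD were basal or were killed 15, 30, 60 or 120 min after intraperitoneal insulin at 1 U/kg. Basal groups on all 3 diets had a counterpart given metformin in the drinking water at 270 mg/kg/day of lean body mass. There were 45 libraries in 14 groups, 3 a group and 6 on 16-week HFD killed 30 min after insulin. The labels do not say whether the libraries of a group come from separate animals, so p-values measure the spread between these libraries, which may be technical in part.

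Counted reads per library ran from 18193181 to 50253493. Levels are CPM, counts divided by the library's TMM-scaled total and set to a common depth, and all 37 members passed the filter on low counts that left 14067 genes to test. A gene is called where edgeR's quasi-likelihood test gives a Benjamini-Hochberg adjusted p below 0.05 over those genes. Hepatocyte markers were high in every library, with a summed level of 78820 to 164500 CPM over 7 genes. Summed pancreatic acinar markers reached 17870 CPM in 1 library from 16-week HFD with 15 min of insulin, and skeletal muscle markers reached 1197 CPM in the first basal library on 6-week HFD. The first metformin library on 16-week HFD stood apart from the others, with the steepest trend of counts with exon length (Spearman rho −0.61 across genes). In the 30 min insulin group of the 16-week HFD, libraries 1 to 3 and libraries 4 to 6 differed in the trend of counts with GC content (rho 0.19 to 0.22 and −0.22 to −0.13).

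Promoter sequences of 5 members are shown because these genes either changed most with diet or encode active subunits. No promoter window was found for the active-site gene Psmb7. Each run is the 150 bases that end at the RefSeq start site (GRCm38.p6), 5′ to 3′ on the gene's strand. Capitals mark TGACNNNGC, the core of the element that Nfe2l1 and its relatives bind, and CCAAT, both searched on either strand, so that CCAAT on the other strand reads ATTGG.
Psmd9 (chr5:123228040-123228189, plus strand): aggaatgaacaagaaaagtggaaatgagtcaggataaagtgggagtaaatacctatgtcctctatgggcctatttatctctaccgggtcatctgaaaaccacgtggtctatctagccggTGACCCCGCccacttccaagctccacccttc
Psma5 (chr3:108256776-108256925, plus strand): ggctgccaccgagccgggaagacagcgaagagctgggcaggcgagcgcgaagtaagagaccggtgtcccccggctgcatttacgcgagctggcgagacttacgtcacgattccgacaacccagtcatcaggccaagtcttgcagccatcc
Psmd4 (chr3:95042615-95042764, minus strand): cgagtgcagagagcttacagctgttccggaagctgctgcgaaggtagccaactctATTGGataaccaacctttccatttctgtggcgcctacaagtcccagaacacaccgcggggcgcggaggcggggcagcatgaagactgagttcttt
Psmb5 (chr14:54617996-54618145, minus strand): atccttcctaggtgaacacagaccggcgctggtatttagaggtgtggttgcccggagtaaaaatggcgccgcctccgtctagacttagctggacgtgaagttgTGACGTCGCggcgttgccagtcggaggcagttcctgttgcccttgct
Psmb6 (chr11:70525207-70525356, plus strand): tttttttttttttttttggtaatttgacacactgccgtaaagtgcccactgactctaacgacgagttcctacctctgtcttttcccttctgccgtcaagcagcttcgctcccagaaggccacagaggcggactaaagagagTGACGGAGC
In Psmd9 the TGACNNNGC match begins 31 bases before the start, in Psmb5 47 bases and in Psmb6 9 bases before it. Promoter windows were found for 25 of the 31 subunit genes. Over the 250 bases before the start, TGACNNNGC was in 4 of their 27 windows (14.8%), against 10.2% of all 32851 RefSeq windows and 11.7% of those of the genes tested. Besides Psmb5 and Psmb6 these were Psmc6 and Psmd12, where the match begins 227 and 247 bases before the start. CCAAT was in 10 of the 27 windows (37.0%), against 33.8% of all windows and 35.2% of those of the genes tested. A match is a description of letters, not a binding site.

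In basal chow livers, levels per kilobase of exon were highest for core genes. Psmb4, a core beta subunit without an active site, was highest at 164.4 ± 3.17 CPM per kb (SD, n = 3), followed by the active-site gene Psmb7 at 157.3 ± 7.70, which did not differ from it beyond their spread. Psma6, of the alpha ring, stood at 127.6 ± 5.17, and Psmd4, the cap subunit that binds ubiquitin chains, at 122.9 ± 4.83. The other active-site genes were lower, Psmb6 at 95.4 ± 3.45 and Psmb5 at 66.6 ± 1.79 CPM per kb. Much of the Psmb5 sequence also occurs in transcripts of other genes, as given below, so its level is less certain. Psmd14, the enzyme of the cap that cuts ubiquitin chains off, was lowest of the 31 at 38.2 ± 3.09, and below it came the chaperones Psmd9 at 26.2 ± 0.81, Psmd5 at 17.4 ± 0.99 and Psmd10 at 6.56 ± 0.30. Psma8, Psmb11 and Psmc3ip had at most 42, 25 and 24 reads in any library, so fold changes of these 3 members are imprecise.

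On 16-week HFD the basal livers held less mRNA of nearly the whole particle than basal chow livers. All 31 subunit genes had a negative log2 fold change and 23 fell, with a median of −0.41 (range −0.76 to −0.19). Over the 37 members, 24 fell and none rose, where 32.3% of all genes tested changed and 16.3% fell, and the median of all genes tested was 0.02. In whole liver, fewer cells of a type and less RNA per cell cannot be told apart. The summed level of the 31 subunit genes was 3413, 3654 and 3526 CPM in the chow libraries and 2895, 2525 and 2442 CPM in the 16-week HFD libraries. Every HFD library lay below every chow library.

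**Figure D1:**
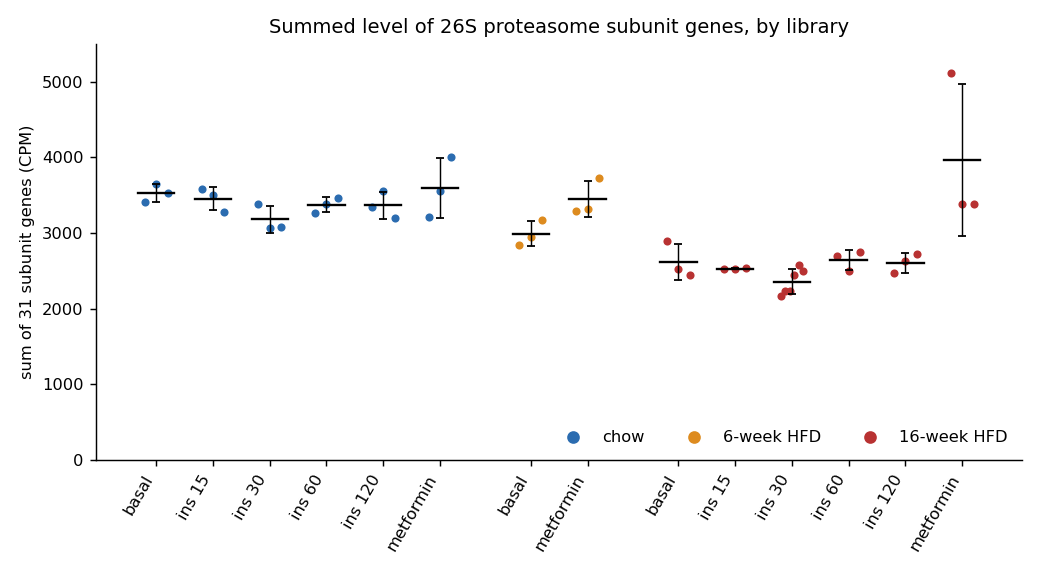
Summed CPM of the 31 subunit genes (y axis) in each of the 45 libraries (points), by group (x axis; ins, minutes after insulin); bars are group means and whiskers the SD. The 18 libraries on 16-week HFD without metformin sit between 2171 and 2895 CPM, all below the 15 chow libraries without metformin at 3070 to 3654 CPM.

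Among the alpha-ring genes, Psma5 had the smallest adjusted p. Its level was 86.6, 91.4 and 98.1 CPM on chow and 61.8, 54.3 and 47.3 CPM on 16-week HFD, a log2 fold change of −0.76 ± 0.14 (SE; edgeR adjusted p 5.51e-05). Psma3, another alpha subunit, fell by 0.52 on the log2 scale (edgeR adjusted p 0.00281). Of the active-site genes, Psmb7 fell from 152.5 ± 7.46 to 106.8 ± 8.61 CPM (log2 fold change −0.51 ± 0.15, edgeR adjusted p 0.00648). Psmb6 was at 96.6, 103.0 and 97.0 CPM on chow and 97.8, 81.4 and 69.1 CPM on HFD, groups that overlap (log2 fold change −0.26 ± 0.11, edgeR adjusted p 0.0632). Psmb5 gave −0.27 ± 0.12 and also missed the threshold (edgeR adjusted p 0.0805). Both passed with length and GC trends taken out of each library (−0.34 for Psmb6 and −0.46 for Psmb5, edgeR adjusted p 0.000518 and 0.000369). Psmb7 then gave the smaller change of −0.28 (edgeR adjusted p 0.00422). The alpha-ring genes Psma5 and Psma3 then gave −0.78 and −0.30. Whether the active-site genes differ from each other in their change was not tested.

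In the cap, Psmd4 was at 149.5, 160.8 and 151.4 CPM on chow and 111.5, 89.9 and 88.2 CPM on HFD (log2 fold change −0.67 ± 0.13, edgeR adjusted p 9.75e-05). The 6 ATPase genes of the cap's base, whose products unfold the substrate, had 5 members that fell. Psmc6 went from 106.5 ± 6.07 to 68.0 ± 5.19 CPM (log2 fold change −0.65 ± 0.12) and Psmc1 from 155.0 ± 4.84 to 99.5 ± 6.85 CPM (−0.64 ± 0.12). Psmd1, the scaffold of the base, fell by 0.53. Of the 8 lid genes 6 fell, among them Psmd12 (−0.67 ± 0.12), Psmd6 (−0.63 ± 0.12) and Psmd11 (−0.56 ± 0.10). Psmd11 was at 115.0, 114.8 and 114.9 CPM on chow and 76.6, 79.7 and 78.0 CPM on HFD, a gap far wider than the spread within either group. Psmd14 gave −0.41 ± 0.15 (edgeR adjusted p 0.0291), a call that was lost in 5 of 14 alternative settings. With length and GC trends removed, Psmd11 gave the smaller change of −0.33 (edgeR adjusted p 0.0146) and Psmc6 −0.37. Psmd4, Psmc1, Psmd12, Psmd6 and Psmd1 then gave −0.80, −0.68, −0.665, −0.59 and −0.50.

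Psmd9, which helps the ATPase ring of the cap assemble and is itself no subunit, had the largest change of all members that passed. Its level was 70.2, 66.6 and 66.5 CPM in basal chow livers and 37.0, 36.1 and 31.2 CPM in basal livers on 16-week HFD (log2 fold change −0.96 ± 0.13, a fold of 0.513, edgeR adjusted p 8.69e-07). Every HFD library lay well below every chow library. The chaperone Psmd10, which also serves assembly of the cap's base, was at 9.55 ± 0.44 and 8.86 ± 0.33 CPM and did not pass the test (log2 fold change −0.11 ± 0.15, edgeR adjusted p 0.616; 0.07 with length and GC trends removed).

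The same diets were compared at each time after insulin, in comparisons that share no library with each other. At 15 min 28 members fell (24.4% of all genes changed, 12.2% fell), at 30 min 32 (37.3% changed, 17.2% fell), at 60 min 19 (22.4% changed, 11.5% fell) and at 120 min 23 (28.2% changed, 13.6% fell). No member rose in any of the 5. The count at 15 min includes Psmc3ip, no subunit and at most 24 reads in a library, whose call (edgeR adjusted p 0.0498) was lost in 12 of 13 alternative settings. Medians over the 31 subunit genes were −0.48, −0.42, −0.35 and −0.36, and all 31 were negative each time. Psmd9 was at 27.3 to 36.5 CPM (median 32.01, n = 6) at 30 min on HFD, against 58.7, 57.6 and 61.0 CPM on chow. In all, 14 members fell each time, where 4.71% of all genes tested did so. They were Psma5 and Psma7 of the alpha ring, Psmb3 and Psmb4 of the beta ring, Psmc1, Psmc4, Psmd1, Psmd2 and Psmd4 of the base, Psmd6, Psmd8, Psmd11 and Psmd12 of the lid, and Psmd9. Negative values in all 5 were found for 34 of the 37 members, against 25.3% of the genes tested. With only libraries 1 to 3 of the 30 min HFD group, 31 members fell at that time. Psma4, Psma8, Psmb11 and Psmd10 were called in none of the 5 and are named here for that, after their values were seen. Reads of Psma4 and of AY074887, whose exons overlap it on the other strand, cannot be told apart with this unstranded kit. The same holds for Psmc3ip and Mlx. Among genes named below it holds for Usp14, Ngly1, Syvn1, Rps27a and Psme1. They overlap Thoc1, Oxsm, Mrpl49, 1700034F02Rik and Fam158a, in that order.

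**Figure D2:**
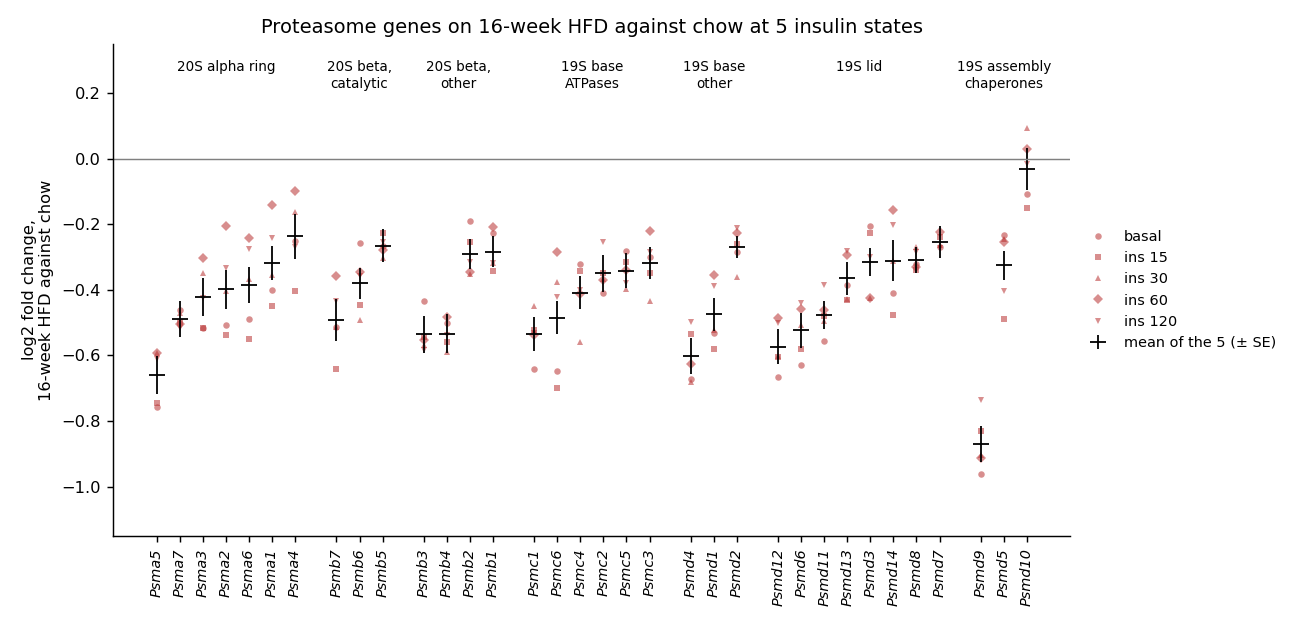
Log2 fold change of 16-week HFD against chow (y axis) for 34 members (x axis, grouped by place in the particle) in basal livers and at 15, 30, 60 and 120 min of insulin (symbols); black bars are the mean of the 5 comparisons and lines its SE. Psma8, Psmb11 and Psmc3ip, with at most 42 reads in a library, are not drawn. Psmd9 lies lowest, at a mean of −0.87, and Psmd10 nearest to 0, at −0.03 (0.07 with trends removed).

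Averaged over the 5 comparisons, all 31 subunit genes fell, with a median of −0.39 and a range from −0.66 to −0.24. In all, 33 of the 37 members fell, where 63% of all genes tested changed and 29.4% fell. Psmd9 gave −0.87 ± 0.06, Psma5 −0.66 ± 0.06, Psmd4 −0.60 ± 0.06, Psmd12 −0.57 ± 0.05 and Psmc1 −0.54 ± 0.05. Among the active-site genes the mean was −0.49 ± 0.06 for Psmb7, −0.38 ± 0.05 for Psmb6 and −0.27 ± 0.05 for Psmb5 (edgeR adjusted p 3.18e-08, 1.25e-08 and 3.14e-05). The median was −0.39 over the 14 core genes and −0.37 over the 17 cap genes. Leaving out any 1 of the 33 libraries kept the count at 33. With length and GC trends removed, Psmb7, Psmb6 and Psmb5 gave −0.34, −0.39 and −0.31.

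Over the pooled libraries without metformin, the summed level of the 31 genes was 3070 to 3654 CPM on chow (median 3387, n = 15) and 2171 to 2895 CPM on 16-week HFD (median 2522, n = 18), with no overlap. Psmd9 ran from 57.6 to 76.6 CPM (median 65.7) on chow and from 27.3 to 42.7 CPM (median 35.01) on HFD. For Psmd4 the ranges were 118.5 to 160.8 CPM (median 138.5) and 78.2 to 111.5 CPM (median 89.1). Ranges did not overlap for 14 members, all lower on HFD, where 3.39% of the genes tested were lower without overlap. Psmb5 overlapped, at 46.7 to 59.7 CPM (median 56.0) on chow and 38.0 to 55.3 CPM (median 43.9) on HFD.

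**Figure D3:**
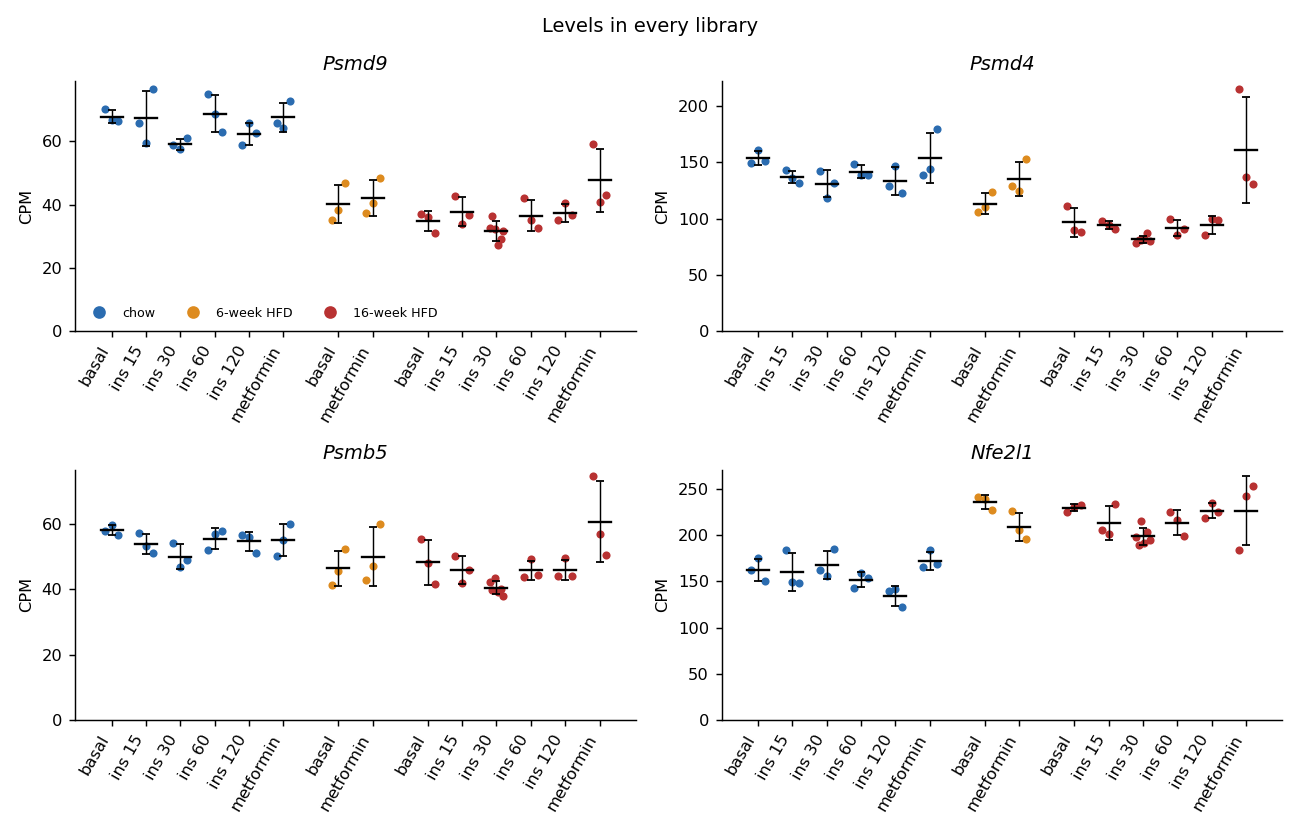
CPM (y axes, from 0) of Psmd9, Psmd4, Psmb5 and Nfe2l1 in every library (points), by group (x axes); bars are group means and whiskers the SD. Psmd9 and Psmd4 are lower and Nfe2l1 higher in all 18 libraries on 16-week HFD without metformin than in all 15 on chow without metformin, while Psmb5 overlaps.

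Other differences ran along with diet. Summed erythroid markers were 60.6 to 92.5 CPM on chow and 92.9 to 132.6 CPM on 16-week HFD over the same pooled libraries, with 3 of the 4 markers at 0 in every library. Macrophage markers (6 genes) had medians of 153.8 and 280.0 CPM, endothelial markers (5 genes) of 204.0 and 302.3 CPM, and adipocyte markers (4 genes) of 1.20 and 16.7 CPM, all with overlapping ranges. In basal libraries the trends of counts with GC content also differed, with a Spearman rho across genes of −0.29 to −0.08 on chow and 0.17 to 0.32 on 16-week HFD. At 15 min of insulin the ranges did not overlap either, at −0.23 to −0.12 and 0.13 to 0.33. At 30, 60 and 120 min the ranges of both diets overlapped, for example −0.02 to 0.05 on chow and −0.24 to 0.13 on HFD at 60 min. The part of the cell markers in the result was not tested. With length and GC trends taken out of each library, 31 of 31 subunit genes still fell in the mean of the 5 comparisons (median −0.37), and the pooled libraries of both diets still did not overlap in the median deviation of the subunit genes (0.083 to 0.287 on chow, −0.411 to −0.039 on HFD, log2 scale).

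After 6 weeks of HFD the values had the same sign. All 31 subunit genes were negative, with a median of −0.25, and 7 of the 37 members fell, where 11% of all genes tested changed and 5.03% fell. Summed levels were 2845, 2954 and 3170 CPM, each below the lowest basal chow library at 3413 CPM. Psmd9 was again the clearest, at 35.2, 38.3 and 46.8 CPM (log2 fold change −0.76 ± 0.13, edgeR adjusted p 0.00013). The other genes that fell were Psma5, Psmc1, Psmd4, Psmd6, Psmd8 and Psmd11, with values from −0.45 to −0.30. Of these 7 genes, Psmd9 was the only one to keep its call with each library left out in turn. Counts of members then ran from 1 to 7 and were lowest, at 1, without the second basal chow library or the first or second 6-week HFD library, and were 2 without basal chow library 3. Removing length and GC trends raised the count to 16. The part of the skeletal muscle RNA in the first 6-week HFD library was not tested.

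Between the HFD durations 29 of the 31 subunit genes were lower at 16 weeks, with a median of −0.21, and 1 fell, where 10.2% of all genes tested changed and 6.03% fell. This was the ATPase gene Psmc6, at 89.98, 97.8 and 99.0 CPM after 6 weeks and 72.7, 62.4 and 68.7 CPM after 16 weeks (log2 fold change −0.49 ± 0.12, edgeR adjusted p 0.00781). Without the second basal library on 16-week HFD the count was 0. With the first basal and metformin libraries on 16-week HFD left out, an alternative chosen after seeing the data, 16 members fell. The shares of all genes given above belong to the main fit and not to that alternative.

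The 3 immunoproteasome subunits rose on HFD. Of all genes tested, 32.3% changed in basal livers on 16-week HFD and 11% on 6-week HFD. In basal livers Psmb8 rose from 9.76 ± 0.47 to 27.0 ± 3.35 CPM on 16-week HFD, Psmb9 from 4.49 ± 0.52 to 15.6 ± 0.72 CPM and Psmb10 from 9.75 ± 0.48 to 26.5 ± 2.67 CPM (log2 fold changes 1.47 ± 0.24, 1.79 ± 0.32 and 1.44 ± 0.21; edgeR adjusted p 2.11e-05, 6.55e-05 and 3.63e-06). They also rose on 6-week HFD, by 1.14 ± 0.24, 1.37 ± 0.32 and 1.01 ± 0.21. Per kilobase, Psmb8 stood at 11.02% to 20.2% of Psmb5 in chow libraries without metformin and at 32.5% to 68.9% in those on 16-week HFD. These percentages share the uncertainty of the Psmb5 level given above. Psmb9 stood at 2.32% to 10.1% of Psmb6 and at 16.1% to 42.9%, and Psmb10 at 4.58% to 10.6% of Psmb7 and at 11.7% to 27.8%. None of the 3 pairs overlapped between the diets, and the highest value of each came from library 2 at 120 min on HFD. For the levels of single genes, 2.46% of those tested were higher on HFD without overlap over the same libraries. In all 45 libraries the standard gene was above its inducible counterpart. Macrophages, which also express these genes, had the higher marker median on HFD given above, and their part in this result was not tested.

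**Figure D4:**
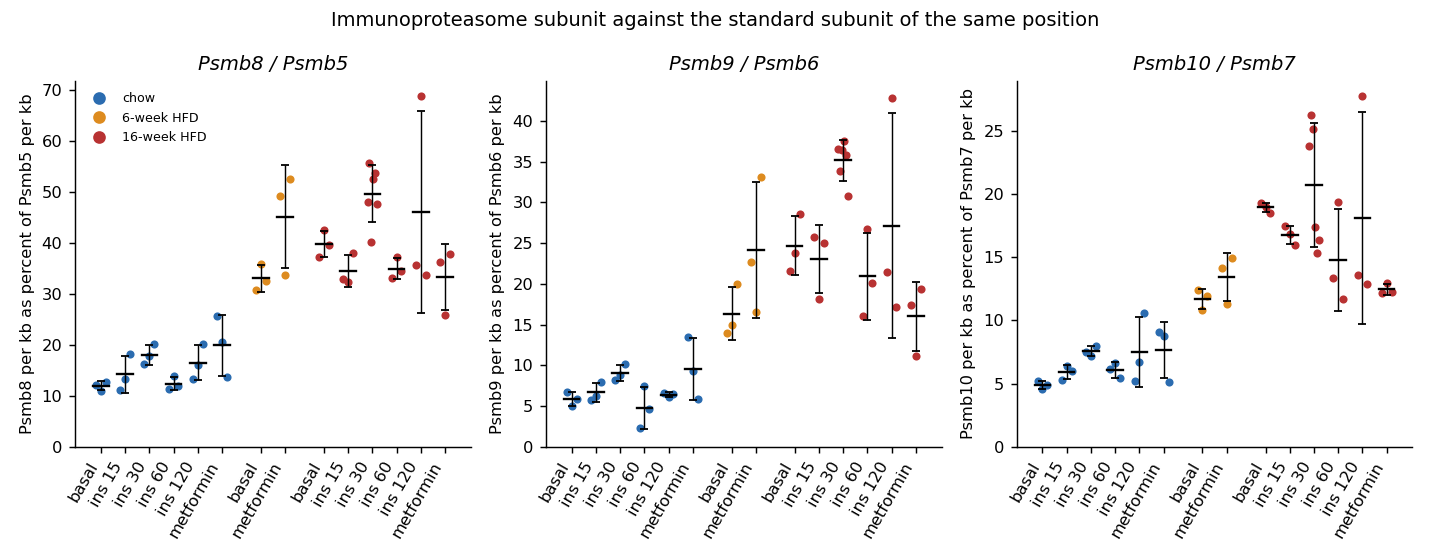
Level per kb of Psmb8, Psmb9 and Psmb10 as a percent of Psmb5, Psmb6 and Psmb7 (y axes) in every library (points), by group (x axes); bars are group means and whiskers the SD. Chow libraries without metformin lie below those on 16-week HFD without metformin in each panel, 11.02% to 20.2% against 32.5% to 68.9% for the first pair.

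Genes that control or serve the proteasome did not all follow the subunits. Nfe2l1 rose in basal livers from 162.7 ± 12.1 to 229.7 ± 3.81 CPM on 16-week HFD (log2 fold change 0.50 ± 0.10, edgeR adjusted p 0.000156) and to 236.1 ± 7.30 CPM on 6-week HFD (0.54 ± 0.10, edgeR adjusted p 0.000331). It was called higher in each of the 5 comparisons of 16-week HFD with chow, between 0.25 and 0.75. Its pooled ranges, 122.3 to 184.8 CPM on chow and 190.0 to 234.8 CPM on HFD, did not overlap. Of the genes tested, 2.46% were higher on HFD without overlap. At 30 min the Nfe2l1 call was lost with length and GC trends removed (0.10, edgeR adjusted p 0.294). It was also lost without library 1 or 2 of the chow group at that time. Under metformin Nfe2l1 also rose on 16-week HFD against chow (0.40 ± 0.10, edgeR adjusted p 0.00396). That call was lost in the fit of the compared groups alone (edgeR adjusted p 0.254). A link between the levels of Nfe2l1 and of the subunit genes was not tested. Of the 9 tested genes of the Nfe2l1 route, 5 rose and 1 fell in the mean of the 5 comparisons, a share of changed genes close to the 63% of all genes tested. Syvn1 and Sel1l, which carry proteins out of the endoplasmic reticulum, gave 0.89 ± 0.15 and 0.57 ± 0.10, and Nfe2l2, a related factor, 0.29 ± 0.06. Ngly1, the enzyme that strips sugars from Nfe2l1, gave −0.35 ± 0.04.

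Of the 12 genes of the VCP segregase and the shuttles that bring substrates to the proteasome, 9 fell and none rose in that mean, where 29.4% of all genes tested fell. Ufd1l, a VCP cofactor, gave −0.55 ± 0.04, Nsfl1c −0.36 ± 0.04, Nploc4 −0.34 ± 0.04, Faf1 −0.28 ± 0.04 and the shuttle Rad23b −0.27 ± 0.03. Among 5 activators and inhibitors, Psme4, a nuclear activator cap, fell by 0.50 and Psme3 by 0.19 on the log2 scale. Psme2, part of the interferon-inducible cap, rose by 0.29. Psme1, also among these 5, had pooled medians of 64.19 CPM on chow and 59.79 CPM on 16-week HFD without metformin, with overlapping ranges. Psme4 was at 184.2 to 231.0 CPM in pooled chow libraries and at 119.5 to 177.0 CPM on 16-week HFD, with no overlap. Among 5 chaperones of core assembly, Psmg1 gave −0.33 ± 0.06, Psmg2 −0.20 ± 0.07 and Psmg3 0.20 ± 0.06. Pomp, which escorts the beta subunits into place, gave 0.00 ± 0.07 (edgeR adjusted p 0.981). Of 5 other cap subunits and bound enzymes 3 fell, against the same 29.4%, the ubiquitin-cutting Usp14 (−0.40 ± 0.04) and Uchl5 (−0.20 ± 0.06) and the ubiquitin receptor Adrm1 (−0.25 ± 0.04). Of the genes that encode ubiquitin, Rps27a gave −0.69 ± 0.06 and Ubb 0.15 ± 0.05. With length and GC trends removed Uchl5 and Ubb lost their calls.

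Few subunit genes passed in tests of insulin. On chow no member was called at 15, 30, 60 or 120 min by edgeR, where 1.13%, 0.0711%, 1.39% and 5.08% of all genes tested changed, and DESeq2 also called none. Unadjusted p below 0.05 was reached by 1, 0, 0 and 0 members. On 16-week HFD edgeR called 0, 1, 0 and 0 members (0%, 3.55%, 0.00711% and 0% of all genes), DESeq2 0, 3, 0 and 0, and 0, 10, 1 and 0 had an unadjusted p below 0.05. The one call was the lid gene Psmd3, at 122.3, 113.4 and 104.1 CPM in basal livers and 85.6 to 100.4 CPM (median 90.6, n = 6) at 30 min, with no overlap (log2 fold change −0.30 ± 0.09, edgeR adjusted p 0.0415). That call was lost in 11 of 18 alternative settings, among them leaving out basal library 1 or 2 or library 1, 2, 4 or 6 at 30 min. With only the first 3 libraries at 30 min in the group 6 members fell, and with the replicate block 6 also fell. The shares of all genes belong to the edgeR calls of the main fit. They do not belong to the DESeq2 counts, the unadjusted counts or these alternatives. Medians over the 31 subunit genes were −0.16 at 30 min both on chow and on 16-week HFD, and between −0.07 and 0.01 at the other times. Tests of whether the insulin response differed by diet called no member at any time with edgeR or DESeq2, where edgeR called 0.00711%, 0%, 0% and 0.839% of all genes at 15, 30, 60 and 120 min, and edgeR gave an unadjusted p below 0.05 for 0, 0, 1 and 0 members.

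On 16-week HFD, livers of metformin-treated mice held more subunit mRNA than basal livers. Of the 31 subunit genes 29 rose, with a median of 0.63, and 32 of the 37 members rose, where 28.4% of all genes tested changed and 16.9% rose. The summed level was 5122, 3390 and 3385 CPM with metformin against 2895, 2525 and 2442 CPM without. All 3 metformin libraries lay above the basal ones, and the first lay far above the other two. Psmb1, a core beta subunit without an active site, had the smallest adjusted p, at 105.9, 93.6 and 87.4 CPM in basal livers and 220.9, 140.2 and 141.7 CPM with metformin (log2 fold change 0.81 ± 0.11, edgeR adjusted p 4.22e-06). Other genes that rose were Psma1, Psma3, Psma5 and Psma6 of the alpha ring (0.72 to 0.80), Psmb4 (0.78 ± 0.14), the active-site genes Psmb7 (0.80 ± 0.15), Psmb6 (0.69 ± 0.11) and Psmb5 (0.33 ± 0.12), and Psmc6, Psmd4, Psmd6 and Psmd14 of the cap (0.62 to 0.75). Psmb5 overlapped between the groups, at 74.8, 56.8 and 50.6 CPM with metformin, and lost its call in 8 of 15 alternative settings. Pomp was at 99.7, 79.3 and 77.3 CPM in basal livers and 213.5, 98.2 and 110.5 CPM with metformin, groups that overlap (0.72 ± 0.16, edgeR adjusted p 0.000992). Without the first metformin library Pomp gave 0.29 and did not pass. With trends removed it gave 0.26 and kept its call (edgeR adjusted p 0.0484). Its call was lost in 4 of 15 alternative settings. Nfe2l1 gave −0.02 ± 0.10 (edgeR adjusted p 0.916), but 0.30 with trends removed (edgeR adjusted p 0.0202). The members that did not pass, named here after their values were seen, were Psmd2, Psmd3, Psma8, Psmb11 and Psmc3ip. Psmd2 gave 0.18 (edgeR adjusted p 0.0803), but passed with trends removed (0.29, edgeR adjusted p 0.014). Psmd3 gave 0.15 and did not pass with trends removed either (0.14, edgeR adjusted p 0.304). Summed hepatocyte markers were 93750 to 114800 CPM in the basal and 125500 to 147900 CPM in the metformin libraries, and endothelial markers 179.1 to 321.6 and 111.9 to 166.6 CPM, both without overlap, and their part in the result was not tested.

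These metformin values moved with the length of the transcript. Across the 31 subunit genes, which share their libraries, the log2 fold change on 16-week HFD had a Spearman rho of −0.50 with exon length, and 0.13 after length and GC trends were taken out of each library. All 9 metformin libraries had a negative trend of counts with length (rho −0.61 to −0.13 across genes). With the trends removed, 25 members rose and the median over the 31 was 0.32, and Psmd14 (0.25, edgeR adjusted p 0.0964) and Psmb5 (0.04, edgeR adjusted p 0.81) lost their calls. Without the first metformin library 23 members rose, and with both changes, an alternative chosen after seeing the data, 11 rose with a median of 0.25. Fitted on the libraries of these groups alone, edgeR called no member and 16 genes in all (edgeR adjusted p 0.161 for Psmb1). For diet, rho with length was 0.12 in the mean of the 5 comparisons and −0.09 with trends removed.

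**Figure D5:**
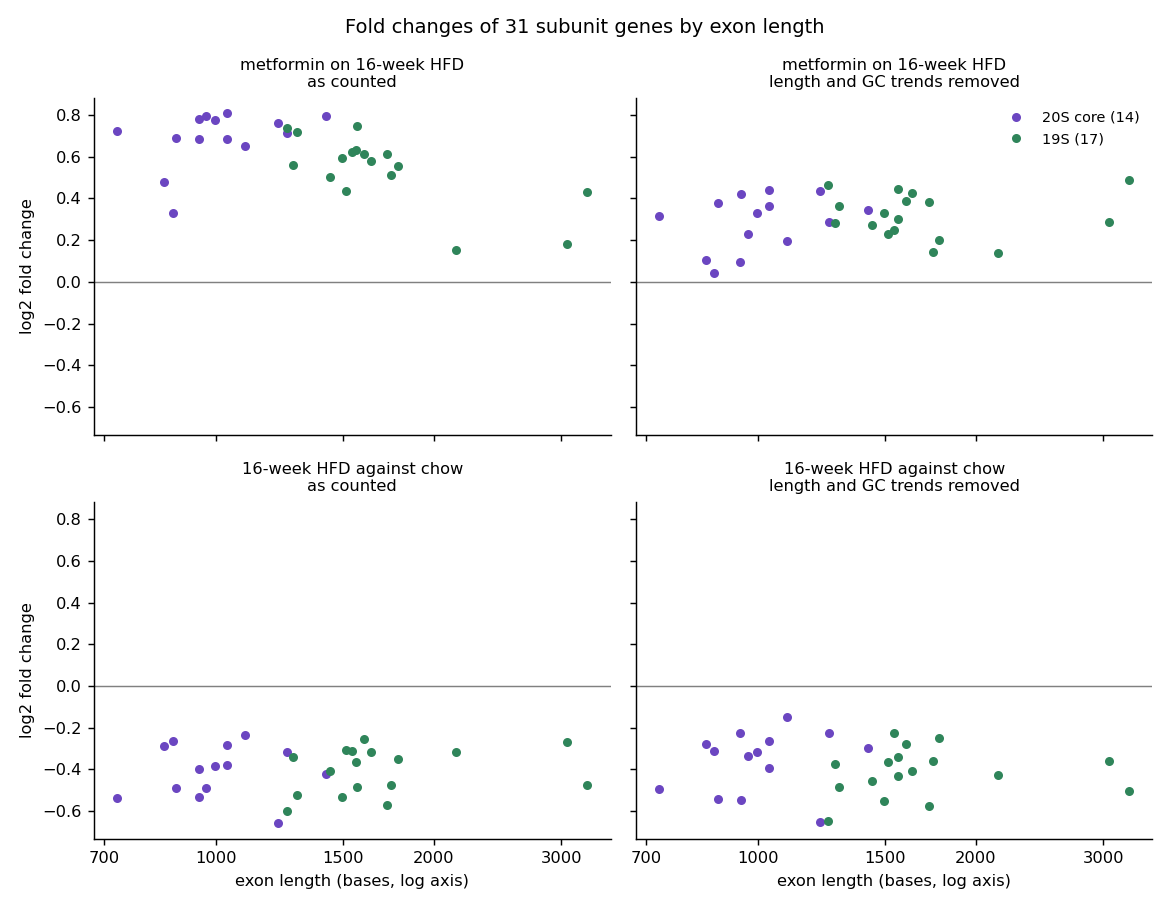
Log2 fold change (y axes) against exon length in bases (x axes, log scale) for the 14 core and 17 cap subunit genes, for metformin on 16-week HFD (top) and for 16-week HFD against chow as the mean of 5 comparisons (bottom), as counted (left) and with length and GC trends removed (right). The metformin values have a rho with length of −0.50 at top left. At top right rho is 0.13, where the removal of length trends itself takes out such a slope, and the median is 0.32. The diet values stay below 0 in both lower panels.

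On 6-week HFD metformin gave positive values for all 31 subunit genes, with a median of 0.21, and 3 members rose, where 3.17% of all genes tested changed and 1.93% rose. They were Psmb1 (0.41 ± 0.11), Psma5 (0.51 ± 0.14) and Psmb3 (0.46 ± 0.13; edgeR adjusted p 0.0261, 0.0307 and 0.0401). Psma5 was at 56.3, 66.2 and 79.5 CPM without and 91.4, 87.6 and 107.5 CPM with metformin, with no overlap. The count fell to 0 with trends removed, when the median was 0.03, and ran from 0 to 2 with each library left out in turn. On chow no member was called by edgeR or DESeq2, where 1.94% of all genes changed by edgeR, and 1 member had an unadjusted p below 0.05. The median over the 31 was 0.03 there, and the summed level was 3212, 3559 and 4006 CPM with metformin against 3413 to 3654 CPM without.

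In the mean of the 3 diets, metformin raised 28 members (31.2% of all genes tested changed, 18.1% rose), and 9 with trends removed. The response to metformin on 16-week HFD minus that on chow was tested directly. It was larger on HFD for 19 members, all subunits, where 4.96% of all genes tested differed and 3.23% were larger on HFD, with a median over the 31 of 0.61. Psmd6 gave 0.78 ± 0.17 and Psmc6 0.72 ± 0.17 (edgeR adjusted p 0.0138 and 0.017). With trends removed these were 0.52 and 0.28 (edgeR adjusted p 0.023 and 0.133), and their calls were lost in 5 and 8 of 21 alternative settings. The count was 10 with trends removed and 0 in the fit of the 4 groups alone. It fell to 0 without the second basal library on chow or on 16-week HFD or the first metformin library on chow, and to 1 without the first metformin library on 16-week HFD. The same test for 6-week HFD called no member by edgeR or DESeq2, where 0.0427% of all genes tested differed by edgeR, and 1 member had an unadjusted p below 0.05.

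Among metformin-treated livers few members were called between diets. On 16-week HFD against chow the median over the 31 subunit genes was 0.18, Psmb1 rose (0.32 ± 0.11, edgeR adjusted p 0.0293) and Psmd9 fell (−0.50 ± 0.13, edgeR adjusted p 0.00498), where 20.4% of all genes tested changed. Psmd9 was at 65.9, 64.1 and 72.6 CPM on chow with metformin and 59.0, 40.8 and 43.2 CPM on 16-week HFD with metformin, with no overlap. Psmb1 lost its call in 9 of 15 alternative settings, among them trends removed (0.07), leaving out the first metformin library on 16-week HFD (0.07) and leaving out any 1 of the chow metformin libraries. Without metformin library 2 or 3 on 16-week HFD, the count was 12 or 9. On 6-week HFD against chow with metformin the median was −0.05, and Psmd9 was the only member called (−0.68 ± 0.13, edgeR adjusted p 0.00117; 4.43% of all genes), at 37.3, 40.5 and 48.4 CPM. Psmd9 was thus lower on HFD in every comparison of an HFD group with its chow counterpart.

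Across the 14 group means the subunit genes varied together. The median Pearson correlation of a gene with the other 30 ran from 0.84 for Psmd3 to 0.96 for Psmb4, Psmb7, Psmd6 and Psmd13, a description with no test, since the genes share libraries and scaling. Some members also share sequence with other loci. Of their 40-base transcript words, 64.2% in Psmb5, 55.5% in Psma5, 25.3% in Psmd9, 24.1% in Psmd2, 22.5% in Psmc1 and 20.1% in Psmb3 occur in transcripts of another gene, so their counts are less certain than those of the other members. The same holds, at 25.6% to 49.4%, for Adrm1, Psme2, Rps27a, Ubb and Usp14 among the other genes named.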

How the data were processed

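PolyA RNA of mouse liver was sequenced in 45 libraries of 14 groups. The authors deposited raw read counts per gene, one column a library. The submitters' processing notes name TopHat 1.4.0, the mm9 build and HTSeq, and the kit keeps no strand. The authors' normalized tables were not used.

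Counts were fitted with edgeR 4.0.16 (R 4.3.3): TMM scaling, filterByExpr with a minimum count of 10 (14067 of 23227 genes kept), 1 quasi-likelihood fit of all libraries, 28 comparisons, Benjamini-Hochberg adjustment over the genes tested and a false discovery rate of 0.05. Log2 CPM used a prior count of 2. The fit was tested on simulated data. Groups came from the labels. Depth was 18193181 to 50253493 counts a library, and the number of libraries limits precision. The members and gene lists were chosen with earlier results of these data known. The rule for named genes allows, in each comparison, up to 10 called members with the smallest adjusted p, Psmb5, Psmb6, Psmb7, Psmd4, Psmd14, Psma8, Psmb11 and Psmc3ip, up to 5 called genes of each other list, and Nfe2l1, Pomp and Psme4; not all of them are given in every comparison. Some genes of the ubiquitin list are not reported here.

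Alternatives were another scaling (RLE), no filter, a replicate block, removal of length and GC trends, a fit of the compared groups alone, DESeq2 1.42.0 and leaving out libraries. Shares of all genes given beside counts of members belong to the main edgeR fit, not to these alternatives. Exon lengths came from the deposited mm9 gene model, promoters from RefSeq (GRCm38.p6; 30 of 37 members matched), and shared 40-base words from GENCODE M21 transcripts.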

Additional observations from a re-analysis of the deposited data

Results flagged for a closer look

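In the group of 6 libraries (16-week HFD, 30 min after insulin), a single library stood apart from the others, relative to the group's range, for 4 members. These were Psma8 at 1.46 CPM and Psmd8 at 113 CPM in library 1, and Psmb2 at 45.2 CPM and Psmd4 at 87.1 CPM in library 5. The other libraries lay at 41.9 to 42.9 CPM for Psmb2, 78.2 to 81.5 CPM for Psmd4, 95.7 to 101.5 CPM for Psmd8 and 0.46 to 0.82 CPM for Psma8. Chance flags about 1 in 20 groups in this way.

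The response to metformin differed between 16-week HFD and chow for 19 members by a test of the difference itself. Its log2 size (response on HFD minus response on chow) was 0.78 for Psmd6, 0.72 for Psmc6, 0.74 for Psmd4, 0.72 for Psmd12, 0.76 for Psma3, 0.67 for Psmc1, 0.53 for Psmd8, 0.71 for Psma6, 0.80 for Psmb7 and 0.63 for Psmd13. The adjusted p of edgeR's quasi-likelihood test ran from 0.0138 to 0.0268 over these 10. Over all genes tested, 4.96% differed and 3.23% were larger on HFD. The count of 19 members became 0 to 29 with each library left out in turn. It was also lower with length and GC trends removed and in the fit of the compared groups alone, as given above.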

How the results depend on the processing

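Of 129 named gene results, 4 changed sign under some alternative, none of them called as reported. Pomp in the mean of the 5 diet comparisons (0.002) gave −0.003 with RLE scaling and with DESeq2, −0.008 without filter, −0.027 with the replicate block, −0.02 with libraries 1 to 3 alone at 30 min, −0.036 without the first basal and metformin libraries on 16-week HFD, and −0.023 to 0.018 with each library left out. Psmd10 gave 0.072 with trends removed, both in basal livers and in that mean, 0.073 and 0.067 with the block added, and −0.057 to 0.001 in the mean with each library left out. Nfe2l1 with metformin on 16-week HFD gave 0.296 with trends removed, with or without the block, 0.322 with the first metformin library also left out, 0.107 without the first basal and metformin libraries, and −0.106 to 0.111 with each library left out. The count of members lower on 16-week HFD than on chow stayed within 1.5 times under every setting other than leaving out a library. Leaving out each library in turn gave 18 to 29 in basal livers, 21 to 27 at 15 min, 22 to 32 at 30 min, 14 to 18 at 60 min, 13 to 21 at 120 min and 33 to 33 in the mean of the 5. It gave 1 to 7 for 6-week HFD, 0 to 2 between HFD durations, 1 to 12 and 1 to 2 for 16- and 6-week HFD under metformin, 23 to 32, 0 to 2 and 25 to 30 for metformin on 16-week HFD, on 6-week HFD and as the mean of 3 diets, 0 to 29 for the difference in metformin response between 16-week HFD and chow, and 0 to 2 for 30 min of insulin on 16-week HFD.

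In the order 6-week HFD, HFD durations, 16-week HFD under metformin and 6-week HFD under metformin, removing length and GC trends gave 16, 5, 1 and 2 members. It gave 0 for metformin on 6-week HFD, 9 for its mean, 10 for the difference in metformin response and 2 for 30 min of insulin on 16-week HFD. The replicate block, where the labels share only a number, gave 3 between HFD durations and 6 for 30 min of insulin on 16-week HFD. All 3 same-numbered pairs correlated above 0.1 in 4 of 91 pairs of groups (median correlation −0.01). The block with trends removed gave 15, 4 and 1 for 6-week HFD, HFD durations and 16-week HFD under metformin, 0 and 7 for metformin on 6-week HFD and its mean, 11 for 30 min of insulin on 16-week HFD and 10 for the difference in metformin response. Fitting only the groups compared gave 14 for 6-week HFD and 0 for 16-week HFD under metformin, metformin on 16-week HFD, the difference in metformin response and 30 min of insulin on 16-week HFD. For that last comparison, no filter gave 0, DESeq2 3 and libraries 1 to 3 alone 6. DESeq2 gave 2 between HFD durations. With trends removed and the first metformin library on 16-week HFD left out, metformin on 16-week HFD gave 11, its mean 4 and the difference in response 0. Without the first basal and metformin libraries on 16-week HFD, both chosen after seeing the data, counts were 16 between HFD durations, 1 for 16-week HFD under metformin, 0 for 30 min of insulin and 12 for the difference in response. The cause was not tested.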
